A study of Mus musculus with 6 samples.

Results

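The genes described here are 45 genes of DNA replication and mitosis, chosen by name from the 55298 gene rows measured in sorted fibroblasts of mouse lung tumours. Of these, 24 act in DNA replication, from the licensing of origins and the step from G1 into S phase to the making of nucleotides. The other 21 act in mitosis, from entry to the separation of the daughter cells. RNA was sequenced from 2 populations of cancer-associated fibroblasts. The apCAFs, antigen-presenting fibroblasts with surface MHC class II (MHCII), gave the libraries apCAFs 1, 2 and 3, and the nonapCAFs, fibroblasts without it, gave the libraries nonapCAFs 4, 5 and 6. Both came from orthotopic lung tumours, that is, tumours growing in the lung, of wt C57BL/6 mice over 8 weeks old. Pooled tumours were the source in each of 3 independent experiments, in which cells with and without MHCII were collected in parallel. The gate took large cells that lacked CD45, CD31, EPCAM and mCherry and carried PDGFRA and a marker that the labels spell PDPL, read here as podoplanin. All groups share genotype, strain and tumour model, and differ by label only in MHCII. The labels do not say which libraries share an experiment or how many animals stand behind each, so p-values measure only the spread between these 6 libraries. The gate names no marker of a cell cycle stage, and whether its choice of large cells favoured a stage was not tested. Fewer cycling cells and less RNA per cycling cell cannot be told apart in such bulk RNA.

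A cell that is about to divide first loads the MCM helicase onto its replication origins, then fires those origins and copies its DNA in S phase. Later it builds up the cyclins, kinases, kinesins and centromere proteins that pull the copies apart in mitosis. Many genes of the replication group are known targets of the E2F transcription factors, which the RB protein restrains. Many mitosis genes are controlled through the CHR and CCAAT elements bound by the DREAM and MYB complexes and by NF-Y. Fibroblasts in healthy tissue rarely divide, so RNA of these genes is widely read as a mark of cycling cells.

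All 45 genes were above 0 in every library, with normalized counts between 528 and 30008, so none was lost to a filter on low values. The sort itself was clear in the RNA, since the summed normalized counts of H2-Aa, H2-Ab1, H2-Eb1 and Cd74, the core MHCII genes, were 104629, 108634 and 193196 in apCAFs, against 1867, 2178 and 1397 in nonapCAFs. Defining fibroblast genes such as Col1a1 and Pdgfra were high in all libraries. The apCAFs libraries were not alike, however. Over the 17829 genes with a mean normalized count of at least 100, the SD of the log2 ratio between libraries was 0.24 for apCAFs 1 and 2 but 0.71 and 0.69 for apCAFs 3 against each of them, and it was 0.25 for nonapCAFs 4 and 5 but 0.49 and 0.48 for nonapCAFs 6 against each of them. The median log2 fold changes of the replication genes, the mitosis genes and the related pathway lists are therefore given with and without apCAFs 3. The plot of log2 fold changes shows each of the 45 genes both ways. In the text, many fold changes of single genes are given with all libraries only. The same holds for the counts of genes with all apCAFs below all nonapCAFs and for values from the authors' deposited table.

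Promoters of such genes hold sequence elements that are known to drive their expression in the cell cycle. Promoter windows from 250 bases before to 50 bases after the start were taken from RefSeq (GRCm38.p6) for 35 of the 45 genes, as 20 windows of 19 replication genes and 16 windows of 16 mitosis genes. The stretches printed here are the 150 bases before the start, 5′ to 3′, for the replication and the mitosis genes whose RNA set apCAFs 3 furthest from the other libraries, among those with an entry and a match in that stretch (Mcm3 and Cdc45, then Bub1 and Cenpf). One gene was added per group to show an E2F word and a CHR word (Mcm6 and Mki67). Capitals mark every match to a motif on either strand.
Mcm3 (chr1:20820313-20820462, minus strand): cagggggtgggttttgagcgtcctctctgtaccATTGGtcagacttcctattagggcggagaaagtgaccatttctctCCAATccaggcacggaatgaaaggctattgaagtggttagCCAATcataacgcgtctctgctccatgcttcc
Cdc45 (chr16:18811973-18812122, minus strand): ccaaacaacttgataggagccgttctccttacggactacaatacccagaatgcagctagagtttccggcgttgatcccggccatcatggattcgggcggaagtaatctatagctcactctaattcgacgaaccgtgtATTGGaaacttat
Mcm6 (chr1:128359706-128359855, minus strand): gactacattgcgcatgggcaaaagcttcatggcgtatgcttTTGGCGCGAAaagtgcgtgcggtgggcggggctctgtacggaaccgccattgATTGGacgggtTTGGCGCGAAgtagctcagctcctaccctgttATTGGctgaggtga
Bub1 (chr2:127831860-127832009, minus strand): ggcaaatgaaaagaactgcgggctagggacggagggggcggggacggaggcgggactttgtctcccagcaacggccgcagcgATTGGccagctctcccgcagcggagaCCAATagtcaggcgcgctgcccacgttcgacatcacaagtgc
Cenpf (chr1:189688087-189688236, minus strand): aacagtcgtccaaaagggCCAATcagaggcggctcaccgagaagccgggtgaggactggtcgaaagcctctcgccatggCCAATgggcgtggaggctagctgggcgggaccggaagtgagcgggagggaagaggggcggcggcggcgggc
Mki67 (chr7:135716380-135716529, minus strand): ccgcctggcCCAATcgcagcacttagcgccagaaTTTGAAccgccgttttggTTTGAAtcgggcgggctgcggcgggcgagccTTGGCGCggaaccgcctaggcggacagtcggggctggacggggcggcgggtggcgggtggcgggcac

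Several kinds of motif were searched, each on both strands. The CHR element, read as TTTGAA, was in 12 of 16 mitosis windows (75.0%) and in 2 of 20 replication windows, against 17.9% of all 32851 promoter windows in the RefSeq table. The E2F core, read as TTCCCGC or TTGGCGC or TTCGCGC or TTGCCGC, showed the opposite order, with 3 of 16 mitosis windows (18.8%), 13 of 20 replication windows (65.0%) and 9.57% of all windows. The CCAAT box was in 15 of 16 mitosis windows (93.8%), in 14 of 20 replication windows (70.0%) and in 37.4% of all windows. The reverse form of the CCAAT box can share bases with the second of these E2F words. Both a CCAAT box and a CHR word stood together in 12 mitosis windows and in 2 replication windows, those of Mcm2 and Cdc45. In Mki67, the proliferation marker, the CCAAT box began 141 bases before the start and the CHR words 116 and 98 bases before it, followed by an E2F word at 67 bases. In Mcm6, a subunit of the MCM helicase, E2F words began 109 and 46 bases before the start, each overlapped by a further E2F word on the opposite strand. The last 30 bases of the Mcm6 window were not found in a GENCODE M21 transcript of that gene, so its start is less certain. Such a match was found for 30 of the 36 windows of the genes described here. The printed 150 bases of Mcm3, Cdc45, Bub1 and Cenpf held CCAAT boxes alone, while the E2F word of Mcm3 and the CHR words of Cdc45 and Cenpf lay elsewhere in their windows. Such matches describe letters and not binding.

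**Figure D1:**
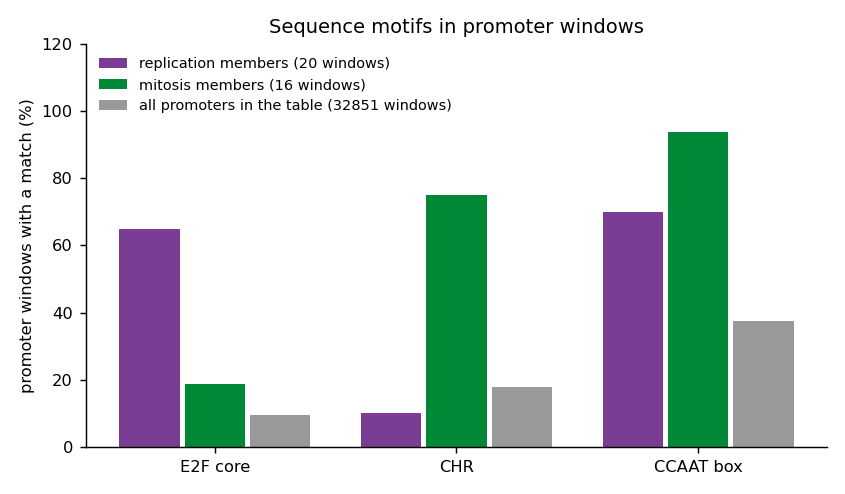
Share of RefSeq promoter windows (percent, y axis) that hold an E2F core word, the CHR word or the CCAAT box, for replication genes, mitosis genes and all windows of the table. The E2F core stood in 65.0% of replication windows and the CHR word in 75.0% of mitosis windows, against 9.57% and 17.9% of all windows.

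Across the groups, all 45 genes had lower fitted levels in apCAFs, but no difference passed the test and most were much smaller without apCAFs 3. The median log2 fold change, apCAFs over nonapCAFs, was -0.54 for the 24 replication genes (range -0.73 to -0.10) and -0.36 for the 21 mitosis genes (range -0.73 to -0.07), against -0.05 for the 17829 abundant genes. A log2 fold change below 0 was found for 45 of 45 genes, against 54.7% of abundant genes. None passed limma at a Benjamini-Hochberg adjusted p of 0.05 in either direction, where 0.486% of all 36443 tested genes passed as lower and 3.91% as higher. At an unadjusted limma p under 0.05, 3 of 45 were lower, Ccne2, Cdc6 and Pole, a share close to the 7.4% of abundant genes. All 3 apCAFs lay below all 3 nonapCAFs for 13 of 24 replication genes (54.2%) and for 6 of 21 mitosis genes (28.6%), against 25.9% of abundant genes, so the share in mitosis genes was near the background. No gene had all 3 apCAFs above all 3 nonapCAFs, an order found in 25.5% of abundant genes.

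**Figure D2:**
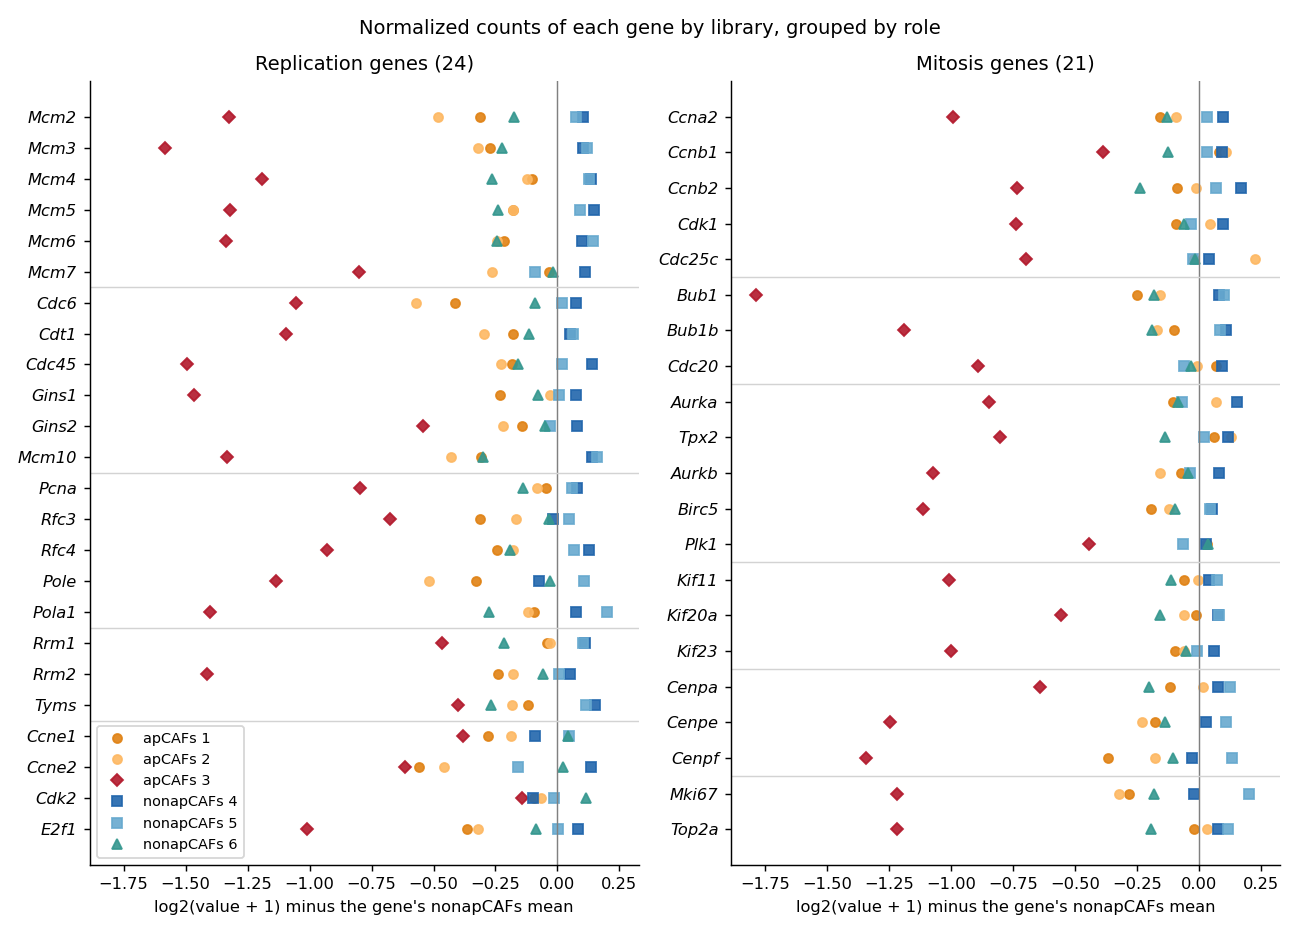
Level of each of the 45 genes (down the page, grouped by role) in each library, as log2(value + 1) minus the gene's nonapCAFs mean (x axis); each symbol is a library. The symbol of apCAFs 3 is the leftmost for all 45 genes.

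The MCM2 to MCM7 subunits form the ring that unwinds DNA at the fork. Mcm2 (chromosome 6, 88883474 to 88898780, minus strand, mm10) had 11722, 10419 and 5810 normalized counts in apCAFs 1, 2 and 3, against 15609, 15321 and 12864 in nonapCAFs 4, 5 and 6. Its groups did not overlap, and apCAFs 3 stood well below the other libraries. The means were 9317 ± 3106 in apCAFs and 14598 ± 1509 in nonapCAFs (SD, n = 3 each), a log2 fold change of -0.71 with an SE of 0.31 that did not pass limma (adjusted p = 0.295). Mcm6, with the highest normalized counts of the subunits (not corrected for gene length), had 19321, 18941 and 8888 in apCAFs, against 24076, 24768 and 18976 in nonapCAFs. Here apCAFs 1 lay above nonapCAFs 6, so the groups overlapped, and the log2 fold change of -0.60 (SE 0.36) had an adjusted limma p of 0.399. The 6 subunits had log2 fold changes between -0.73 (Mcm3) and -0.37 (Mcm7), with groups apart for Mcm2 and Mcm3. Mcm7 shares bases with Cops6 and Ap4m1 on the genome, and reads of such overlapping genes may have been split in counting.

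Origins are licensed by CDC6 and CDT1, which load the MCM ring, and fired by CDC45, the GINS complex and MCM10. Cdc6 (chromosome 11, 98907801 to 98923940, plus strand) had 917, 824 and 588 normalized counts in apCAFs, against 1288, 1237 and 1147 in nonapCAFs. Every apCAFs library lay below every nonapCAFs library, and apCAFs 1 and 2 also stood well below the lowest nonapCAFs value. The means were 776.3 ± 169.6 in apCAFs and 1224.0 ± 71.4 in nonapCAFs (SD, n = 3 each), a log2 fold change of -0.68 (SE 0.21, 95% interval -1.21 to -0.15, limma adjusted p = 0.169). Cdt1, the partner of Cdc6 in licensing, had 6769, 6244 and 3594 in apCAFs, against 7953, 8023 and 7080 in nonapCAFs. Its groups were apart by a small margin, from 6769 in apCAFs 1 to 7080 in nonapCAFs 6, and its log2 fold change was -0.52 (SE 0.28, limma adjusted p = 0.352). Cdc45, Gins2 and Mcm10 also had groups apart, with log2 fold changes of -0.64, -0.30 and -0.69, and Gins1 had -0.58 with groups that overlapped. None of the 6 passed. Cdt1 and Gins2 overlap the transcript model Gm20388, Gins2 also overlaps Gse1, and Cdc45 overlaps Ufd1, so their values carry the same doubt as that of Mcm7.

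At the fork, PCNA is the sliding clamp, RFC3 and RFC4 are subunits of the clamp loader, POLE is the catalytic subunit of the leading-strand polymerase and POLA1 that of the polymerase that starts each strand. Pole (chromosome 5, 110286306 to 110337474, plus strand) had 3785, 3313 and 2163 normalized counts in apCAFs, against 4508, 5112 and 4651 in nonapCAFs. The groups were apart, with apCAFs 3 lowest. The means were 3087 ± 834.3 in apCAFs and 4757 ± 315.6 in nonapCAFs (SD, n = 3 each), a log2 fold change of -0.66 (SE 0.25, limma adjusted p = 0.237). Pcna had 6404, 6250 and 3808 in apCAFs, against 6983, 6891 and 6016 in nonapCAFs. Here the range of nonapCAFs reached below apCAFs 1 and 2, and the log2 fold change was -0.31 (SE 0.25, limma adjusted p = 0.518). The pseudogene Pcna-ps2 was counted at 1.99 times the mean of Pcna itself, with 10753, 12509 and 6836 in apCAFs and 14968, 14474 and 12805 in nonapCAFs, so how reads were split between both is uncertain. Rfc3, Rfc4 and Pola1 had log2 fold changes of -0.39, -0.45 and -0.54, with groups apart only for Rfc3 among these. Rfc4 shares bases with Eif4a2, whose mean normalized count was far above its own, and Pola1 with the pseudogene Gm14780, whose mean was also above its own, so both values carry the doubt about overlapping genes.

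Ribonucleotide reductase, made of the RRM1 and RRM2 subunits, and thymidylate synthase (TYMS) supply the deoxynucleotides. Rrm2, the subunit whose level follows S phase, had 5134, 5362 and 2273 normalized counts in apCAFs, against 6289, 6088 and 5823 in nonapCAFs. The groups were apart, and apCAFs 3 was far below the other libraries (log2 fold change -0.61, SE 0.37, limma adjusted p = 0.407). Rrm1, the larger subunit, had 13883, 14006 and 10329 in apCAFs, against 15441, 15332 and 12304 in nonapCAFs. Its groups overlapped, since nonapCAFs 6 lay below apCAFs 1 and 2, and the log2 fold change was -0.18 (SE 0.20, limma adjusted p = 0.587). Tyms had a log2 fold change of -0.24, and the pseudogene Tyms-ps had 2078, 2284 and 2275 normalized counts in apCAFs and 2247, 1990 and 1985 in nonapCAFs, above Tyms itself in every library, so its value is uncertain in the same way.

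The step from G1 into S phase is driven by cyclin E, encoded by Ccne1 and Ccne2, with its kinase CDK2, and by E2F1. Ccne2 (chromosome 4, 11191351 to 11204779, plus strand) had 1045, 1122 and 1006 normalized counts in apCAFs, against 1693, 1380 and 1563 in nonapCAFs. All 3 apCAFs lay close together and below all nonapCAFs, and apCAFs 3 was not set apart. The means were 1057.7 ± 59.0 in apCAFs and 1545.3 ± 157.2 in nonapCAFs (SD, n = 3 each), a log2 fold change of -0.54 (SE 0.15, 95% interval -0.91 to -0.17). The adjusted limma p was 0.126, the smallest of the 45 genes. Ccne2 shares bases with Ints8 on the opposite strand, whose mean normalized count was above its own and whose log2 fold change was -0.02. Cdk2 had 5282, 5377 and 5107 in apCAFs, against 5265, 5577 and 6098 in nonapCAFs. The libraries of both groups interleaved and the log2 fold change was -0.10 (SE 0.13, limma adjusted p = 0.65). E2f1 had 4084, 4215 and 2609 in apCAFs, against 5578, 5275 and 4952 in nonapCAFs, with groups apart (log2 fold change -0.57, SE 0.23, limma adjusted p = 0.272). Ccne1 also had groups apart at a log2 fold change of -0.28 (SE 0.13, limma adjusted p = 0.31).

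**Figure D3:**
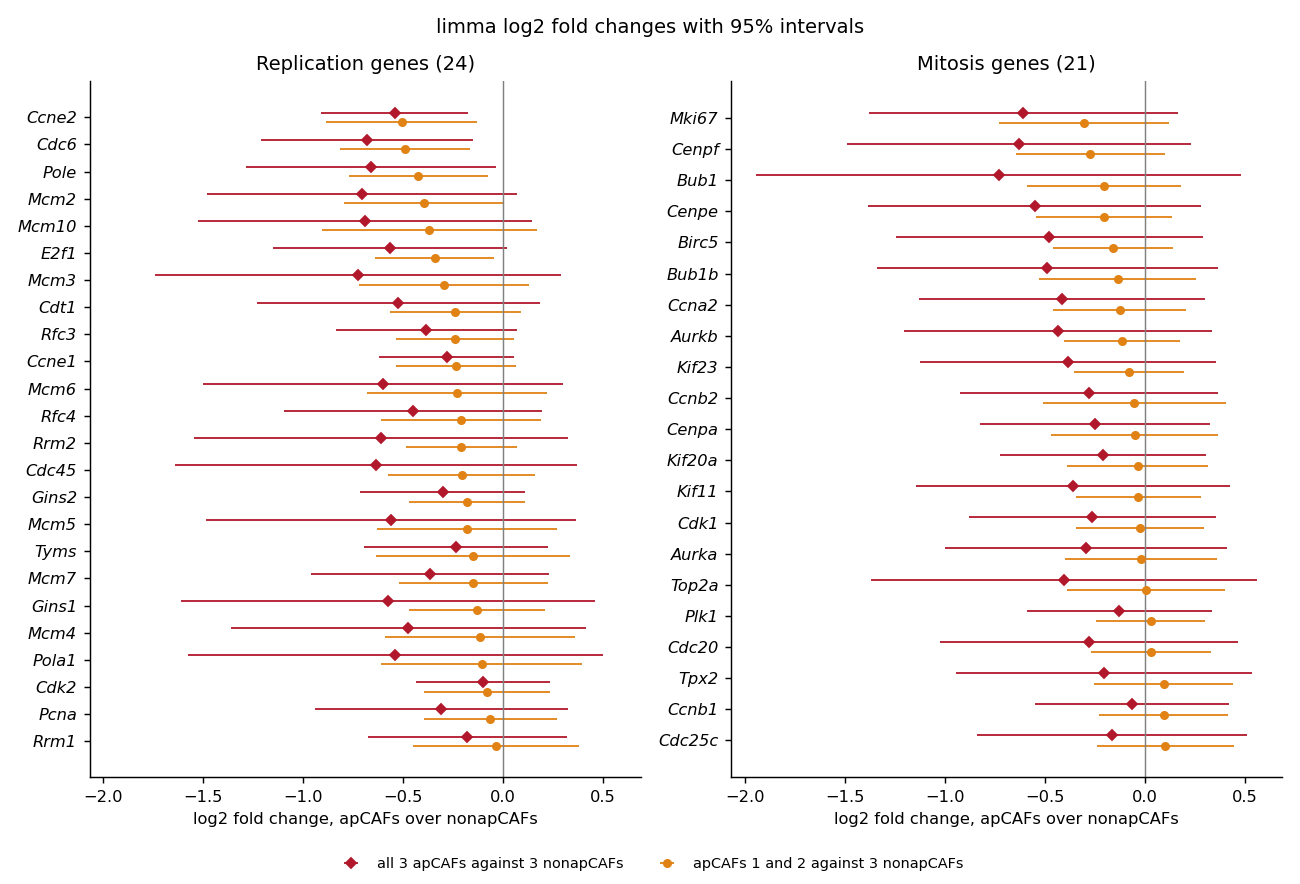
Log2 fold change, apCAFs over nonapCAFs (x axis), of each of the 24 replication and 21 mitosis genes, with limma's 95% interval, from all 6 libraries and without apCAFs 3. The values from all libraries lie between -0.73 and -0.07; those without apCAFs 3 lie between -0.51 and 0.10.

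Among mitosis genes, the cyclin A2, B1 and B2 genes, Cdk1 and Cdc25c encode the kinase and its activators that start mitosis. Ccna2, the gene of cyclin A2, had 8723, 9121 and 4894 normalized counts in apCAFs, against 10420, 9947 and 8900 in nonapCAFs. The highest apCAFs library lay above the lowest nonapCAFs library, and the log2 fold change was -0.41 (SE 0.28, limma adjusted p = 0.467). Ccnb2 had a log2 fold change of -0.28, Cdk1 of -0.26 and Cdc25c of -0.16. Ccnb1 had 1550, 1579 and 1119 in apCAFs, against 1564, 1496 and 1344 in nonapCAFs, values that interleaved (log2 fold change -0.07, 95% interval -0.55 to 0.42). The pseudogene Ccnb1-ps was counted at 2.02 times the mean of Ccnb1, so that value is uncertain. Ccna2 shares bases with Exosc9, so its value carries the doubt about overlapping genes.

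The spindle checkpoint holds chromosomes until all are attached, through BUB1 and BUBR1 (encoded by Bub1b), and CDC20 activates the ubiquitin ligase that ends the wait. Bub1 (chromosome 2, 127801122 to 127831865, minus strand) had 4995, 5322 and 1720 normalized counts in apCAFs, against 6271, 6371 and 5235 in nonapCAFs. The groups overlapped at apCAFs 2 and nonapCAFs 6, and apCAFs 3 was lower by far. The means were 4012 ± 1992 in apCAFs and 5959 ± 629 in nonapCAFs (SD, n = 3 each), a log2 fold change of -0.73 (SE 0.48, 95% interval -1.94 to 0.48, limma adjusted p = 0.446). Bub1b had 8814, 8414 and 4141 in apCAFs, against 10190, 10017 and 8290 in nonapCAFs. Its log2 fold change was -0.49 (SE 0.34, limma adjusted p = 0.474), with nonapCAFs 6 below apCAFs 1 and 2. Cdc20 had 4197, 3973 and 2155 in apCAFs, against 4266, 3834 and 3910 in nonapCAFs, so apCAFs 1 and 2 lay within the range of nonapCAFs. Its log2 fold change was -0.28 (limma adjusted p = 0.574), and it shares bases with Elovl1, whose mean normalized count was above its own.

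The mitotic kinases Aurora A (Aurka), Aurora B (Aurkb) and Plk1 act with the Aurora A activator Tpx2 and with survivin (Birc5), the Aurora B partner. Birc5 had 3313, 3481 and 1747 normalized counts in apCAFs, against 3926, 3905 and 3542 in nonapCAFs. The groups were apart, by a small margin, and the log2 fold change was -0.48 (SE 0.30, limma adjusted p = 0.434). Aurkb had 4691, 4425 and 2344 in apCAFs, against 5212, 4816 and 4782 in nonapCAFs, also apart by a small margin (log2 fold change -0.43, SE 0.30, limma adjusted p = 0.48). Aurka, Tpx2 and Plk1 had log2 fold changes of -0.29, -0.21 and -0.13. Plk1 had 2361, 2349 and 1697 in apCAFs, against 2354, 2207 and 2363 in nonapCAFs, values within the same range apart from apCAFs 3.

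KIF11 pushes the spindle poles apart, and KIF20A and KIF23 work in the midzone and in the final cut between the daughter cells. Kif23 had 4826, 4945 and 2579 normalized counts in apCAFs, against 5379, 5133 and 4976 in nonapCAFs. The groups were apart only just, with apCAFs 2 beside nonapCAFs 6 (log2 fold change -0.39, SE 0.29, limma adjusted p = 0.518). Kif20a had 8230, 7937 and 5639 in apCAFs, against 8736, 8769 and 7436 in nonapCAFs, and these values overlapped (log2 fold change -0.21, SE 0.20, limma adjusted p = 0.535). Kif20a shares bases with Cdc23, which had a similar mean normalized count, so its value is uncertain. Kif11 had a log2 fold change of -0.36, with apCAFs 1 and 2 inside the range of nonapCAFs.

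Centromeres are marked by the histone variant CENPA and bound by CENPE and CENPF, while Ki-67 coats mitotic chromosomes and topoisomerase IIα (Top2a) untangles them. Cenpf (chromosome 1, 189640606 to 189688086, minus strand) had 6482, 7401 and 3294 normalized counts in apCAFs, against 8203, 9174 and 7781 in nonapCAFs. The groups were apart, and the log2 fold change was -0.63 (SE 0.34, limma adjusted p = 0.356). Mki67 (chromosome 7, 135689784 to 135716361, minus strand), the gene of Ki-67, had 18889, 18380 and 9875 in apCAFs, against 22647, 26444 and 20273 in nonapCAFs. Its groups were apart, with means of 15715 ± 5064 in apCAFs and 23121 ± 3113 in nonapCAFs (SD, n = 3 each) and a log2 fold change of -0.61 (SE 0.31, limma adjusted p = 0.33). Top2a (chromosome 11, 98992943 to 99024189, minus strand) had 27276, 28297 and 11896 in apCAFs, against 29234, 30008 and 24202 in nonapCAFs. Apart from apCAFs 3, its libraries interleaved, and the log2 fold change was -0.40 (SE 0.38, 95% interval -1.37 to 0.56, limma adjusted p = 0.525). Cenpa and Cenpe had log2 fold changes of -0.25 and -0.55.

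**Figure D4:**
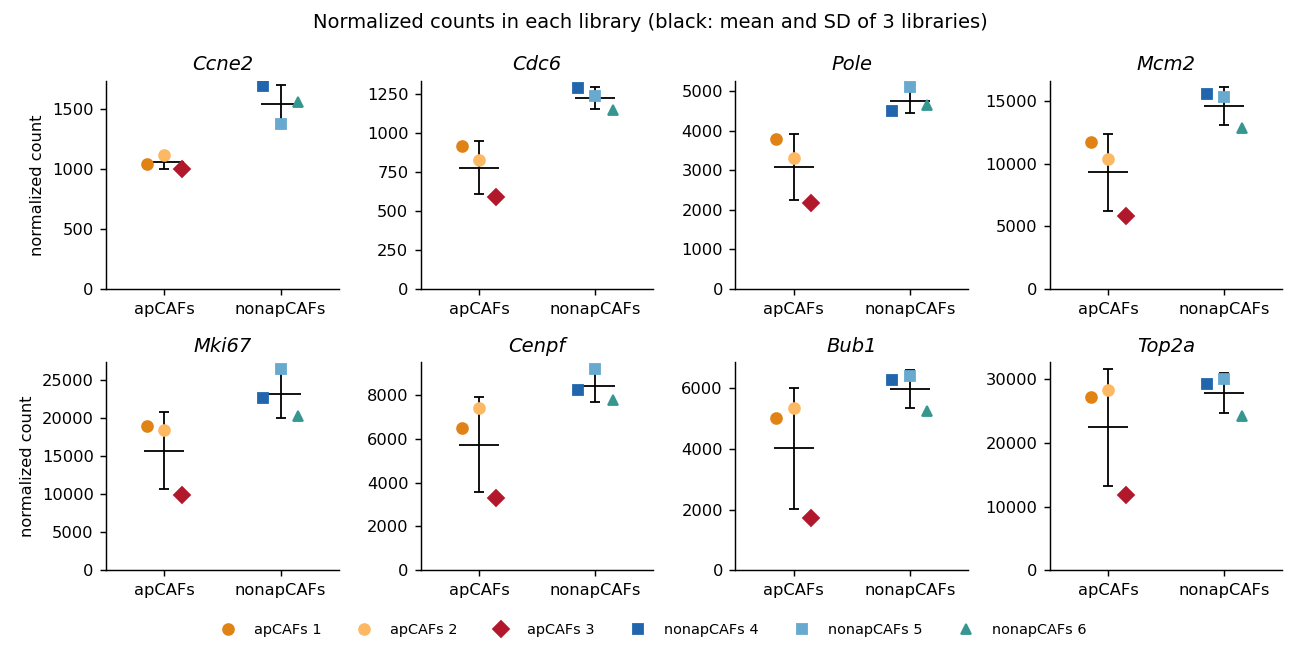
Normalized counts (y axis, from 0) of selected replication and mitosis genes in the 3 apCAFs and the 3 nonapCAFs libraries, with the mean and SD of each group. Ccne2 had 1045, 1122 and 1006 in apCAFs, below 1693, 1380 and 1563 in nonapCAFs, while for Bub1 and Top2a the library apCAFs 3 lay far below the others.

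The library apCAFs 3 held the lowest value of the 6 libraries for 45 of 45 genes, against 38.6% of abundant genes. The summed normalized counts of the 45 genes were 280478 and 280566 in apCAFs 1 and 2 and 150889 in apCAFs 3, against 330317, 332487 and 280975 in nonapCAFs. The median gene stood in apCAFs 3 at 0.549 times its level in apCAFs 1 and 2 (the mean on the log2 scale), while the median over abundant genes was 0.995. A level of at most 0.5 times that of apCAFs 1 and 2 was found for 13 of 45 genes, 8 of replication and 5 of mitosis, against 4.31% of abundant genes. As apCAFs 3 is a single library, it has no replicate and no test was made of it.

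The ratio of apCAFs 3 to apCAFs 1 and 2 ranged widely between the roles. The G1/S genes were the least reduced, with a median ratio of 0.917 to apCAFs 1 and 2, from 0.958 for Cdk2, 0.929 for Ccne2 and 0.904 for Ccne1 to 0.629 for E2f1. The nucleotide synthesis genes followed at 0.741, with 0.84 for Tyms and 0.741 for Rrm1 but 0.433 for Rrm2. The MCM genes had a median ratio of 0.469 and the chromosome protein genes, Mki67 and Top2a, had 0.476. The centromere and checkpoint genes had 0.485 and 0.481. Each role holds only 2 to 6 genes. The lowest single ratios were those of Bub1 (0.334), Gins1 (0.396), Pola1 (0.408), Cdc45 (0.409) and Mcm3 (0.41). Over all replication genes the median ratio was 0.605 and over all mitosis genes it was 0.53. Plk1 (0.721), Ccnb1 (0.715) and Kif20a (0.698) kept the most among mitosis genes.

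The nonapCAFs group had a smaller step of the same kind. The library nonapCAFs 6 was the lowest of its group for 37 of 45 genes, 19 of replication and 18 of mitosis, against 42.7% of abundant genes. Set against the nonapCAFs mean, the median log2 level of the replication genes was -0.22, -0.20 and -1.07 in apCAFs 1, 2 and 3, against 0.09, 0.06 and -0.13 in nonapCAFs 4, 5 and 6. For the mitosis genes the same medians were -0.09, -0.01 and -0.99 in apCAFs, against 0.08, 0.04 and -0.12 in nonapCAFs. For abundant genes all 6 medians lay between -0.04 and 0.01. In each apCAFs library the mitosis median was above the replication median, by 0.13, 0.19 and 0.08. In nonapCAFs both medians are near 0 by construction, since each gene was set against its own nonapCAFs mean.

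**Figure D5:**
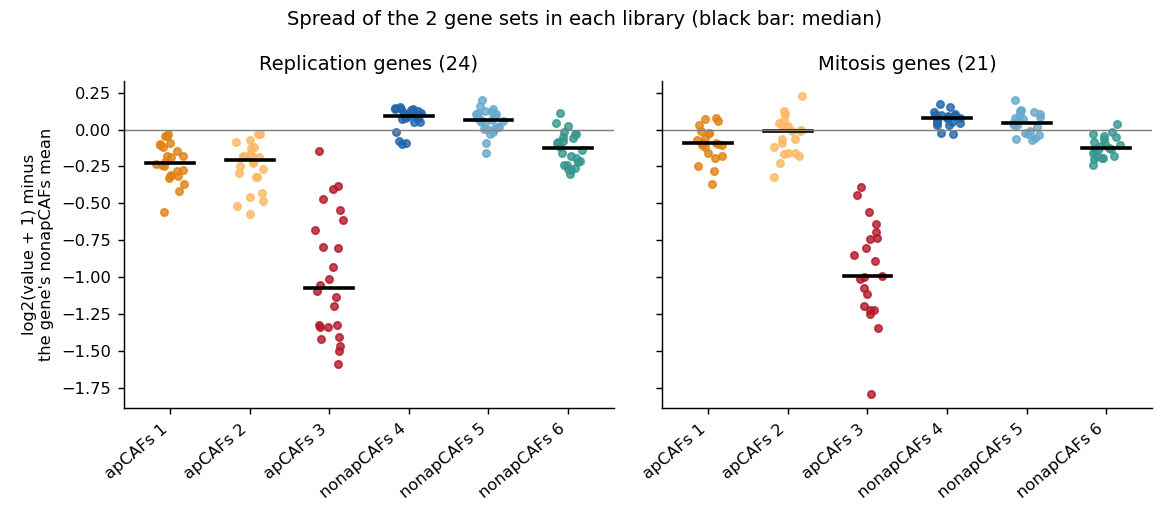
Log2 level relative to the nonapCAFs mean (y axis) of the replication and the mitosis genes in each library; each point is a gene and the black bar is the median. The medians of apCAFs 1 and 2 were -0.22 and -0.20 for replication genes and -0.09 and -0.01 for mitosis genes, and those of apCAFs 3 were -1.07 and -0.99.

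Without apCAFs 3, the replication genes had a lower median than the mitosis genes, a difference that was not tested. The median log2 fold change was -0.21 for replication genes (range -0.51 to -0.03) and -0.05 for mitosis genes (range -0.30 to 0.10), and it was -0.04 for abundant genes. With nonapCAFs 6 left out as well, the medians were -0.29 for replication genes, -0.11 for mitosis genes and -0.04 for abundant genes, so how near the mitosis genes lay to the background depended on that library. All 24 replication genes kept a log2 fold change below 0, as did 15 of 21 mitosis genes, 39 of 45 in all against 54.8% of abundant genes. The 6 above 0 were Ccnb1 (0.09), Cdc25c (0.10), Cdc20 (0.03), Tpx2 (0.09), Plk1 (0.03) and Top2a (0.0048). The 95% interval of Ccnb1 was then -0.23 to 0.42 and that of Top2a -0.39 to 0.40, so differences within those bounds were not excluded. No gene passed the adjusted limma p, where 0.529% of tested genes passed as lower, and 4 were lower at an unadjusted p under 0.05 (Ccne2, Cdc6, Pole and E2f1), against 8.78% of abundant genes. Ccne2 had a log2 fold change of -0.51 (limma adjusted p = 0.15), Cdc6 of -0.49 (limma adjusted p = 0.122), Pole of -0.42 (limma adjusted p = 0.181), Mcm2 of -0.40 (limma adjusted p = 0.249) and E2f1 of -0.34 (limma adjusted p = 0.197). By contrast Bub1 had -0.20, Cenpf -0.27, Mki67 -0.30 and Bub1b -0.14. Without both apCAFs 3 and nonapCAFs 6, 16 of 45 genes (35.6%) were lower at an unadjusted limma p under 0.05, against 11.4% of abundant genes. Of these, 13 were among the 24 replication genes (54.2%) and 3 among the 21 mitosis genes (14.3%), so the mitosis share was near the background. That setting was added after seeing the data and kept only the closest pair of libraries in each group. The SD of the log2 ratio was 0.24 and 0.25 within these pairs. Since the choice itself reduced the spread within groups, no conclusion is drawn from these p-values.

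In the authors' deposited table, whose headers name DESeq2, 6 of the 45 genes had an adjusted p under 0.05 and were lower in apCAFs, against 9.77% of the 19255 genes with an adjusted p, and none was higher, against 20.6%. All 6 were replication genes. The authors' deposited table gave Ccne2 a log2 fold change of -0.55 (adjusted p = 0.000448), Cdc6 -0.66 (adjusted p = 0.00757) and Pole -0.62 (adjusted p = 0.022). It gave E2f1 -0.54 (adjusted p = 0.038), Ccne1 -0.28 (adjusted p = 0.046) and Mcm2 -0.65 (adjusted p = 0.0486) in the same authors' deposited table. The mitosis gene closest to that threshold in the authors' deposited table was Mki67, with a log2 fold change of -0.56 and an adjusted p of 0.093. That was 25% of the 24 replication genes, above the 9.77% of lower calls in the background, and none of the 21 mitosis genes. Over all 45 genes the share was 13.3%, of the same order as that background.

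Other genes of the same pathways had the same order, and none of these passed the adjusted limma p in either direction. Of 35 other replication genes 33 had a log2 fold change below 0, with a median of -0.46 with all libraries and -0.24 without apCAFs 3. Wdhd1, an adaptor at the fork, had 2542, 2256 and 1662 normalized counts in apCAFs, against 3339, 3456 and 3268 in nonapCAFs, with groups apart (log2 fold change -0.66, limma adjusted p = 0.16). Of 45 other mitosis genes all 45 lay below 0, with a median of -0.37 that was -0.09 without apCAFs 3. Among them Espl1, the gene of separase, had 5633, 5875 and 3038 in apCAFs, against 7160, 7462 and 6847 in nonapCAFs (log2 fold change -0.62, limma adjusted p = 0.308). The library apCAFs 3 was lowest of 6 for 30 of those 35 and 44 of those 45 genes.

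The genes of S-phase damage repair had the lowest median of these lists, -0.60 over 12 genes and -0.28 without apCAFs 3. Fanca, of the Fanconi anaemia core complex, had 9189, 8614 and 5149 normalized counts in apCAFs, against 13039, 13077 and 14638 in nonapCAFs, with a wide gap between the groups (log2 fold change -0.87, limma adjusted p = 0.16). Of 19 E2F, RB and DREAM genes 15 lay below 0, with a median of -0.29 and of -0.22 without apCAFs 3. E2f8, an E2F that represses its targets, had 4148, 3482 and 1747 in apCAFs, against 5734, 5808 and 5605 in nonapCAFs. Mybl2, the MYB protein that joins the DREAM subunits to drive mitosis genes, had 3314, 2935 and 1409 in apCAFs, against 4535, 4514 and 4988 in nonapCAFs. Both had groups apart, with log2 fold changes of -0.96 (limma adjusted p = 0.228) and -0.97 (limma adjusted p = 0.233), both further below 0 than that of any of the 45 genes.

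Of 7 G1 cyclin and kinase genes 6 lay below 0, with a median log2 fold change of -0.38 that was -0.13 without apCAFs 3. Cdk6, a kinase that phosphorylates RB, had 7991, 7447 and 6406 normalized counts in apCAFs, against 8461, 10259 and 9691 in nonapCAFs, with groups apart (log2 fold change -0.38, limma adjusted p = 0.285). The D-type cyclins, which activate CDK4 and CDK6, differed among themselves, and they and Myc were chosen after their values were seen. Ccnd1 had 29658, 28164 and 9818 in apCAFs, against 36988, 37161 and 34509 in nonapCAFs. Its groups were apart and apCAFs 3 was far below the rest (log2 fold change -0.84, limma adjusted p = 0.367). Ccnd2 had 11358, 10575 and 12442 in apCAFs, against 12941, 12205 and 10909 in nonapCAFs, and Ccnd3 had 6159, 6169 and 6336 in apCAFs, against 6415, 5655 and 6179 in nonapCAFs. In both of these apCAFs 3 was the highest apCAFs library. Myc, a driver of growth and cell cycle entry, had 60600, 57525 and 14571 in apCAFs, against 84159, 84279 and 36918 in nonapCAFs, low in apCAFs 3 and in nonapCAFs 6 alike (log2 fold change -0.79, limma adjusted p = 0.518).

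Markers of cell types also differed between the libraries that differ in the 45 genes. The summed normalized counts of 8 fibroblast genes were 2821305, 2803387 and 4232696 in apCAFs, against 1340785, 1430171 and 1194730 in nonapCAFs. So apCAFs 3, lowest in the replication and mitosis genes, was highest in this sum. For 1 of the 8 genes, however, apCAFs 3 was the lowest of all libraries. The sum of 10 genes of alveolar type II cells, surfactant-making epithelium, was 107745, 90477 and 9609 in apCAFs, against 10589, 11262 and 9244 in nonapCAFs. Its gene Sftpc had 48853, 40491 and 226 in apCAFs, against 185, 185 and 124 in nonapCAFs, so apCAFs 3 was near the nonapCAFs level there, and 9 of the 10 genes were higher in apCAFs 1 and 2 than in apCAFs 3. The sum of 9 mesothelial genes was 42396, 40331 and 51979 in apCAFs, against 5280, 5277 and 6001 in nonapCAFs. Of these 9 genes, 7 passed the adjusted limma p as higher, against 3.91% of all tested genes. So did 4 of the 8 fibroblast and 2 of the 8 epithelial genes, but none of the alveolar type II, leukocyte or endothelial genes. The sum of 8 epithelial genes was 16148, 15318 and 10845 in apCAFs, against 10390, 9651 and 7278 in nonapCAFs, though Epcam itself was 181, 209 and 21 in apCAFs, against 13, 3 and 5 in nonapCAFs. Leukocyte genes (10) summed to 1760, 1868 and 2900 in apCAFs, against 1421, 1626 and 1562 in nonapCAFs, and endothelial genes (6) to 635, 342 and 616 in apCAFs, against 289, 282 and 422 in nonapCAFs. No marker was at 0 in all libraries. The part of these cells in the values of the 45 genes was not tested.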

How the data were processed

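RNA of 3 apCAFs and 3 nonapCAFs libraries was analysed from normalized counts per library. The file headers call these values normalized counts, without saying how they were normalized. The deposited values are whole numbers, read here as rounded. Here they are treated as a score, as the authors deposited them, since reads could not be recovered. Depth is unknown, so no counting interval is given, and summed values ran from 77960347 to 93330791 per library, highest in apCAFs 3. Of the whole numbers 1 to 30, 8 did not occur in apCAFs 3 and 3 did not in apCAFs 2, while none was missing elsewhere. Genes above 0 were fewest in apCAFs 3, with 28589 against 29862 to 30599 in the other libraries. Whether apCAFs 3 was sequenced less deeply was not tested. The authors' deposited table also holds a p-value, a fold (ratio of normalized counts) and its log2 per gene, per the file headers. For the authors' steps, the submitters' processing notes list the tools Bowtie2, Trim Galore and DESeq2 and the build mm10, with no roles. The counter, with its annotation and strandedness, was not given in the sources used here.

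Differences were tested with limma 3.58.1 (R 4.3.3) on log2(value + 1), with group alone in the model and neither trend nor robust estimation. Tested were 36443 genes, each above 0 somewhere among the 6 libraries. Two-sided p-values were adjusted over all of them (Benjamini-Hochberg) and called at 0.05. Fold changes are on this log2(value + 1) scale, which understates changes of low genes, and SE is limma's moderated one. Abundant genes have a mean of at least 100. The 45 genes, the lists and the tests were chosen with earlier results of these data known. Per role, values of every library are given for the gene with the smallest p and the one with the highest mean, and for E2f1, Ccnb1, Cdc20 and Plk1, picked after their values were seen. From each pathway list the genes come from the 2 with the smallest p. Printed promoters hold at most 30 bases inside the gene as the files place it, and Mcm6 and Mki67 were added after the sequences were seen. RefSeq promoters were not used for Aurkb, Ccna2, Ccne2, Cdc25c, Gins1, Gins2, Kif20a, Mcm4, Pole and Tpx2. The limma fit was tested on simulated data, with planted changes larger than that of any of the 45 genes. Smaller changes were not covered by that test. In addition, 15 alternatives were run.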

Additional observations from a re-analysis of the deposited data

How the results depend on the processing

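Across 15 alternatives (a larger pseudocount, other filters, 3 other scalings, a variance trend, each library left out, close pairs averaged, and apCAFs 3 with nonapCAFs 6 left out, the last added after seeing the data), the median log2 fold changes of replication and mitosis genes stayed below 0. The count of genes below 0 was 45 except without apCAFs 3 (39) and without apCAFs 3 and nonapCAFs 6 (40). The median of the 45 genes was -0.43, between -0.59 and -0.15 over the alternatives, with -0.15 without apCAFs 3. No gene was called higher. Called lower was 1 of the 45, Ccne2, when only genes with a mean of at least 100 were tested (limma adjusted p = 0.028). In that setting 2.41% of all tested genes were called lower. With a variance trend it was again Ccne2 alone (limma adjusted p = 0.0291), against 1.34% of all tested genes. The count was 0 otherwise, and the adjusted limma p of Ccne2 ran from 0.028 to 0.449. Scaling to library totals moved the median of abundant genes by -0.15 and quantile scaling by -0.12, and the 45 genes then had medians of -0.59 and -0.49. With the close pairs averaged, no gene of the whole table passed. Without apCAFs 3, Top2a reversed to a log2 fold change of 0.0048, and without apCAFs 2 it was -0.62; the other 19 genes listed by role kept their direction. No paired analysis was possible because the groups share no replicate numbers and the labels do not say which libraries share an experiment. With 3 libraries per group and unknown depth, small differences were not detectable.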
